A study of Mus musculus with 2 samples.

Results

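Foreign-compound metabolism was followed through the gated cell classes of the mouse lung in 10 genes: Cyp2b10, Cyp2f2, Cyp4b1, Cyp2s1, Fmo1, Fmo2, Pon1, Ces1d, Sult1d1 and Aldh1a1. They were chosen by symbol, with earlier results of these data known, and each was found once among the 31053 genes listed in both libraries. Counts of calls among them, set beside the shares of all genes, are therefore a description only. The Cre lungs came from mice labelled Nkx2.1 Cre;Lkb1f/f, and the control lungs from Lkb1f/f mice, so that both carried the same floxed Lkb1 alleles and differed in the Cre driver. All mice were 5 weeks old, and the whole-lung cells of 3 mice per genotype were pooled into 1 droplet library with the 10x 3' v3 chemistry. Nkx2-1 is a transcription factor of the lung epithelial lineage, so the driver is directed to epithelial cells. Strain and sex are not given in the labels. With 1 pooled library per genotype no test was possible, and genotype cannot be told apart from mouse, pool or library.

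Cytochromes P450 are haem enzymes that insert oxygen into lipophilic compounds, and in mouse lung they are best known from club cells, the secretory cells of the small airways. Flavin monooxygenases oxidise nitrogen and sulphur atoms, paraoxonases and carboxylesterases split esters, aldehyde dehydrogenases oxidise aldehydes to acids, and sulfotransferases attach a sulphate group that makes a product easier to excrete. A compound commonly passes first through an oxidising or hydrolysing enzyme (phase I) and then through a conjugating enzyme (phase II).

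The genes lie at separate places of the genome except for 2 groups of neighbours (GRCm38, GENCODE annotation, each a protein-coding gene over its whole span). Cyp2s1 (chr7:25802475-25816913, minus strand), Cyp2b10 (chr7:25897620-25926624, plus strand) and Cyp2f2 (chr7:27119909-27133660, plus strand) share a stretch of chromosome 7. Fmo1 (chr1:162829561-162866610) and Fmo2 (chr1:162874317-162898726) follow each other on the minus strand of chromosome 1. Cyp4b1 is at chr4:115624725-115647723, Pon1 at chr6:5168090-5193946, Ces1d at chr8:93166068-93197838 and Sult1d1 at chr5:87554645-87569027, all on the minus strand, and Aldh1a1 is at chr19:20492715-20643465 on the plus strand. In the last 400 bases of 1 transcript per gene, where 3' tags arise, 0% of the 60-base words occurred in another gene. Other annotated 3' ends of these genes were not checked. Annotated transcripts lie on the opposite strand of Cyp2f2, Cyp2s1 and Aldh1a1, and a same-strand entry overlaps Ces1d.

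Promoter windows of 300 bases, from 250 before to 50 after the annotated start, were available in RefSeq (GRCm38.p6) for 8 of the 10 genes, Fmo1 and Ces1d being the exceptions. The 5 windows shown belong to Cyp2b10, Pon1, Sult1d1 and Cyp4b1, which were lower in at least 1 epithelial class of the Cre library, and to Cyp2f2, which was higher in gated AT2 cells of that library. Each is printed 5' to 3' on the gene's strand, and capitals mark matches on either strand to these letters: C/EBP (TTGCNNAA), xenobiotic response element (GCGTG), the CCAAT box, searched by those letters, the TATA box, searched as TATAAA, AP-1 (TGANTCA), NKX2-1 (CAAGTG), nuclear receptor (AGGTCA), forkhead (TGTTTAC), cAMP response element (TGACGTCA), its short form (TGACG, which the long form contains) and the antioxidant response element core (TGACNNNGC). No marked matches overlap in these windows.
Cyp2b10 (chr7:25897408-25897707, plus strand): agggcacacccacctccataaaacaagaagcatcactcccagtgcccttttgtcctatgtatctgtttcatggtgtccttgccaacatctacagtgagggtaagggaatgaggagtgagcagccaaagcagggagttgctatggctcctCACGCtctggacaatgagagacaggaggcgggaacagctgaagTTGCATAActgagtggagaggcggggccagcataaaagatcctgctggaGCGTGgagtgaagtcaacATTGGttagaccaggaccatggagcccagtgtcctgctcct
Pon1 (chr6:5193897-5194196, minus strand): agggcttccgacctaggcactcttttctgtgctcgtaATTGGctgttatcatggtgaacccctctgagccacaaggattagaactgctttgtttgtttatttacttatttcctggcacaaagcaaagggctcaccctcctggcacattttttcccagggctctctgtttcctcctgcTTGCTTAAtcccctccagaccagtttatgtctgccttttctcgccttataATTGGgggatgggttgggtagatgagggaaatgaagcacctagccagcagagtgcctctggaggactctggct
Sult1d1 (chr5:87568957-87569256, minus strand): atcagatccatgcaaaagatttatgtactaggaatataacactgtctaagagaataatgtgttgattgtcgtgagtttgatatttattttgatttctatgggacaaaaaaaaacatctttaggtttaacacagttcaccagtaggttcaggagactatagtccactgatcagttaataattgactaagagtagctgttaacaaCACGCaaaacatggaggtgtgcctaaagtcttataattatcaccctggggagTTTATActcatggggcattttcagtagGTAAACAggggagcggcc
Cyp4b1 (chr4:115647672-115647971, minus strand): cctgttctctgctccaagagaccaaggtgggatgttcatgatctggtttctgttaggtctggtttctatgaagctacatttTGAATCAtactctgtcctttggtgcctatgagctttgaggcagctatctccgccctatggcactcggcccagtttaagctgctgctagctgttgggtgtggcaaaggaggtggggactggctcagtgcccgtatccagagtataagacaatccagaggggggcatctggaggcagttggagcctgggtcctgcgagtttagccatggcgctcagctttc
Cyp2f2 (chr7:27119705-27120004, plus strand): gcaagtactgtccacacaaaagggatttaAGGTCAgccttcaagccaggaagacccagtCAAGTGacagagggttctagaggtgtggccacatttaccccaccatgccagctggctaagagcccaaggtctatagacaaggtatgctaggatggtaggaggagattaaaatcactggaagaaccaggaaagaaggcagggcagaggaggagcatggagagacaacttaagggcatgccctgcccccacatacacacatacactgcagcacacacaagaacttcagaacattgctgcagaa

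The C/EBP letters began at position -58 from the start in Cyp2b10 and at position -73 in Pon1, and were also found in both Fmo2 windows (-84 and -69) and in the first of the 2 Aldh1a1 windows (-13). They occur in 10.8% of all 32851 promoter windows of this length. The xenobiotic response element letters occurred in Cyp2b10 at -101 and -9 and at -47 in Sult1d1, against 32.4% of all windows with at least 1 match. The Cyp2f2 window held the NKX2-1 letters at -191 (13.6% of all windows) and the nuclear receptor letters at -221 (16.3%), and the Cyp4b1 window held the AP-1 letters at -169 (7.81%). The Pon1 window also held the CCAAT letters at -213 and -23 and the Cyp2b10 window at 10 (37.4% of all windows), and the Sult1d1 window held the TATA letters at 6 (13.6%) and the forkhead letters at 33 (3.65%). The cAMP response element (1.79% of all windows), its short form (20.8%) and the antioxidant core (12.4%) were found in none of the 10 windows of these genes. The Cyp2s1 window held none of the letters searched. A match describes the letters only.

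After filtering, 14712 Cre cells with a median of 3251 UMIs (unique molecular identifiers, each a captured transcript) and 12448 control cells with a median of 3611 UMIs remained, and 59 barcode sequences occurred in both libraries. Each cell was assigned to a class from its own marker genes, and 21 classes with at least 50 cells in each library were used. UMIs were summed per class and library and are given as counts per 1000000 UMIs of that sum (CPM), with exact 95% Poisson intervals in parentheses that cover counting error only. Ratios are Cre over control with exact conditional intervals. A relative ratio is the ratio divided by the median ratio of all genes with at least 20 UMIs in that class, and a gene is called higher or lower at 2-fold or more on that scale. The median ratio was 1.18 in gated AT2, 1.09 in AT1, 1.54 in club and 1.06 in ciliated cells. Stk11, the symbol of Lkb1, stood at 29.5 CPM in Cre and 49.0 CPM in control AT2 cells (ratio 0.603, 0.530 to 0.685), at 46.2 and 84.1 CPM in AT1, 16.0 and 13.2 CPM in club, and 95.1 and 105 CPM in ciliated cells of the Cre and the control library. Its 3' tags may lie outside the deleted part, so they check little.

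Gated classes carried their own markers in both libraries. The 9 AT2 markers summed to 201695 CPM in Cre and 272206 CPM in control AT2 cells, and the 9 AT1 markers to 23361 CPM in Cre and 38015 CPM in control AT1 cells. The 9 club markers summed to 457334 CPM in Cre and 633477 CPM in control club cells, with Kcnj16 at 0 in both, and the 9 ciliated markers to 10590 and 12436 CPM in Cre and control ciliated cells. Gated B cells, which are not known as a source of these transcripts, held 1063 CPM of the club cell secretoglobin Scgb1a1 in the Cre library and 1472 CPM in the control library, and their levels of the 10 genes were read as the level of free RNA. The gates also held markers of other cells. AT1 markers summed to 2167 CPM in Cre and 2520.5 CPM in control AT2 cells, club markers there to 837 and 1418 CPM in Cre and control cells (Kcnj16 at 0 in both), and ciliated markers to 61.0 and 86.5 CPM. AT2 markers summed to 3582 CPM in Cre and 6608 CPM in control club cells, and club markers to 5774 CPM in Cre and 7267 CPM in control ciliated cells, where Gabrp, Chad and Kcnj16 were at 0 in both. The part of these markers and of depth in the results was not tested.

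The main cell class differed among the genes, with some classes shared. Cyp2f2, Pon1 and Sult1d1 had their highest level in gated club cells of both libraries, Cyp2s1, Ces1d and Aldh1a1 in ciliated cells, Cyp2b10 in AT1 cells, Cyp4b1 and Fmo1 in aerocytes, the capillary cells of gas exchange, and Fmo2 in mesothelial cells. The top class was the same in the Cre and the control library for all 10. The interval of the top class was clear of the second class in both libraries for every gene except Aldh1a1, where ciliated (1109.7 CPM, 1021 to 1205) and club cells (1018 CPM, 993 to 1043) overlapped in the control.

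**Figure D1:**
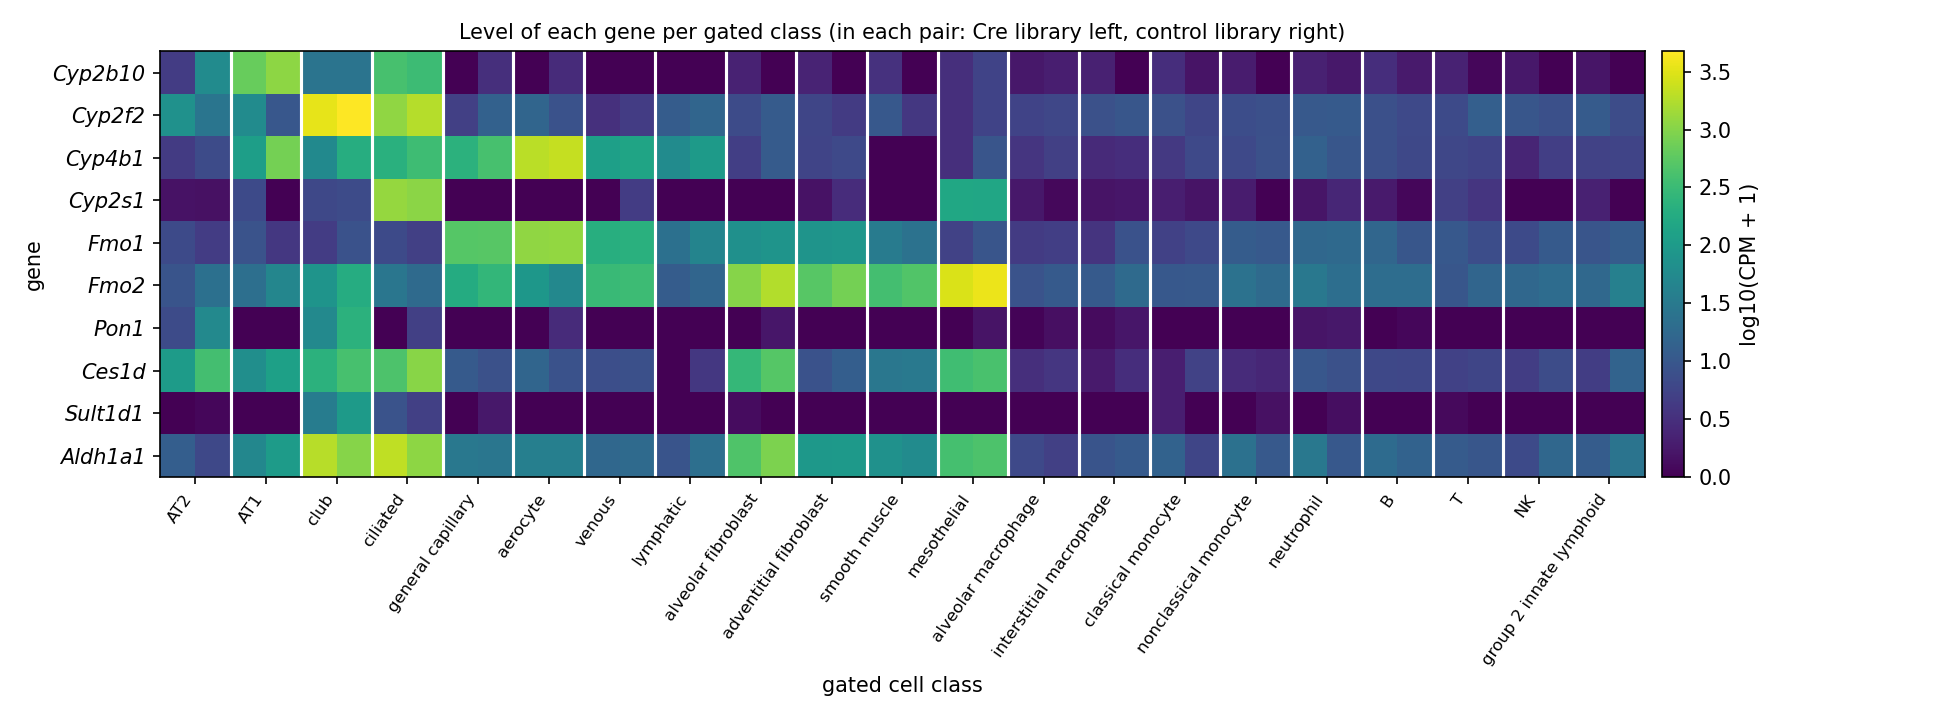
Level of each gene, as log10(CPM + 1), in 21 gated cell classes, with the Cre library left and the control library right in each pair of columns. Bright cells mark the top classes, such as club cells for Cyp2f2 (3409 CPM in Cre, 4721 CPM in control) and mesothelial cells for Fmo2 (2899 CPM in Cre, 3688 CPM in control).

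In the epithelium, Cyp2b10, Pon1 and Ces1d were lower and Cyp2f2 was higher in the Cre library in gated AT2 cells, which make surfactant in the alveolus. In AT1 cells, the flat cells of gas exchange, Cyp4b1 was lower. In club cells Pon1, Cyp4b1 and Sult1d1 were among the genes that were lower, and in ciliated cells Ces1d alone was called lower. These groups are described in that order, P450 enzymes first.

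Of the 10 genes, 8 had at least 20 UMIs in gated AT2 cells, from 1614 Cre and 1367 control cells at median depths of 7891 and 10258 UMIs. By the 2-fold rule 5 were lower, where 3.94% of the 12270 genes tested were lower, and 1 was higher, where 5.79% of all genes were. Cyp2s1 and Sult1d1 had too few UMIs, with 7 and 0 in the Cre library and 6 and 2 in the control library.

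Cyp2b10, the phenobarbital-inducible P450 of mouse liver, had 3.44 CPM (2.51 to 4.61) in Cre AT2 cells, against 58.7 CPM (54.6 to 63.0) in control AT2 cells, from 45 and 770 UMIs. The ratio was 0.0587 (0.0424 to 0.0793), or 17.0-fold lower in Cre (12.6 to 23.6), and the relative ratio was 0.0498, the 8th lowest of the genes tested. The Cre level overlapped that of B cells of the same library (2.03 CPM, 0.816 to 4.18), while the control level lay far above control B cells (0.825 CPM). In the Cre library 1 cell held 17 of the 45 UMIs, and 37.8% of the total lay in it, against 1.30% in the top control cell.

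Pon1, a lactonase and esterase best known from liver and plasma lipoproteins, had 5.89 CPM (4.65 to 7.36) in Cre and 51.8 CPM (48.0 to 55.8) in control AT2 cells. It was 8.80-fold lower (6.94 to 11.3), with a relative ratio of 0.0965, the 21st lowest. Both levels were above B cells, which held 0 UMIs in the Cre library, a count that allows up to 0.870 CPM, and 1 UMI in the control library. Ces1d, a carboxylesterase that hydrolyses lipid and drug esters, had 102 CPM (96.6 to 108) in Cre and 369.9 CPM (359.5 to 380.4) in control AT2 cells, 3.63-fold lower (3.41 to 3.85), with a relative ratio of 0.234. B cells held 5.22 CPM of Ces1d in the Cre and 5.12 CPM in the control library.

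Cyp2f2, the P450 that activates naphthalene in mouse club cells, was the gene called higher in AT2 cells. It had 72.4 CPM (67.8 to 77.1) in Cre AT2 cells and 25.4 CPM (22.7 to 28.2) in control AT2 cells, a ratio of 2.85 (2.51 to 3.24) and a relative ratio of 2.42. B cells held 6.96 CPM in the Cre and 5.45 CPM in the control library. For every 1000 Scgb1a1 UMIs, Cre AT2 cells held 93.4 Cyp2f2 UMIs (87.3 to 99.9) and control AT2 cells 19.4 (17.4 to 21.6), against 8.18 in Cre and 7.91 in control club cells and 343 in Cre and 400.3 in control ciliated cells. AT2 and ciliated cells with over 5% of UMIs from Scgb1a1 were left out by the gate, while club cells had no such limit. Their values per Scgb1a1 UMI are therefore not directly comparable with those of club cells. The part of RNA from other cells was not tested. The UMIs were unevenly spread: the 161 Cre cells with most Cyp2f2 UMIs held 74.2% of them and the 137 control cells with most held 77.8%. The highest single cell held 77 UMIs in the Cre and 17 UMIs in the control library.

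The remaining AT2 values were close to free RNA. Fmo2, the main flavin monooxygenase of mouse lung, was called lower with 8.11 CPM in Cre and 21.6 CPM in control AT2 cells, but B cells held 19.4 CPM in the Cre and 19.5 CPM in the control library. Cyp4b1, a P450 of fatty acids and aromatic amines, was called lower with 3.37 CPM in Cre and 5.87 CPM in control AT2 cells, near the B cell levels of 6.96 CPM in Cre and 5.28 CPM in control, and kept the call in 6 of 11 alternatives. Those 6 include the subtraction of B cell CPM, which cannot check the Cyp4b1 call because the Cre level lay below that of B cells. Aldh1a1, which oxidises retinal to retinoic acid, had 11.6 CPM in Cre and 5.33 CPM in control AT2 cells, and Fmo1 had 5.74 and 3.50 CPM in Cre and control AT2 cells. Both lay below their B cell levels in both libraries.

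**Figure D2:**
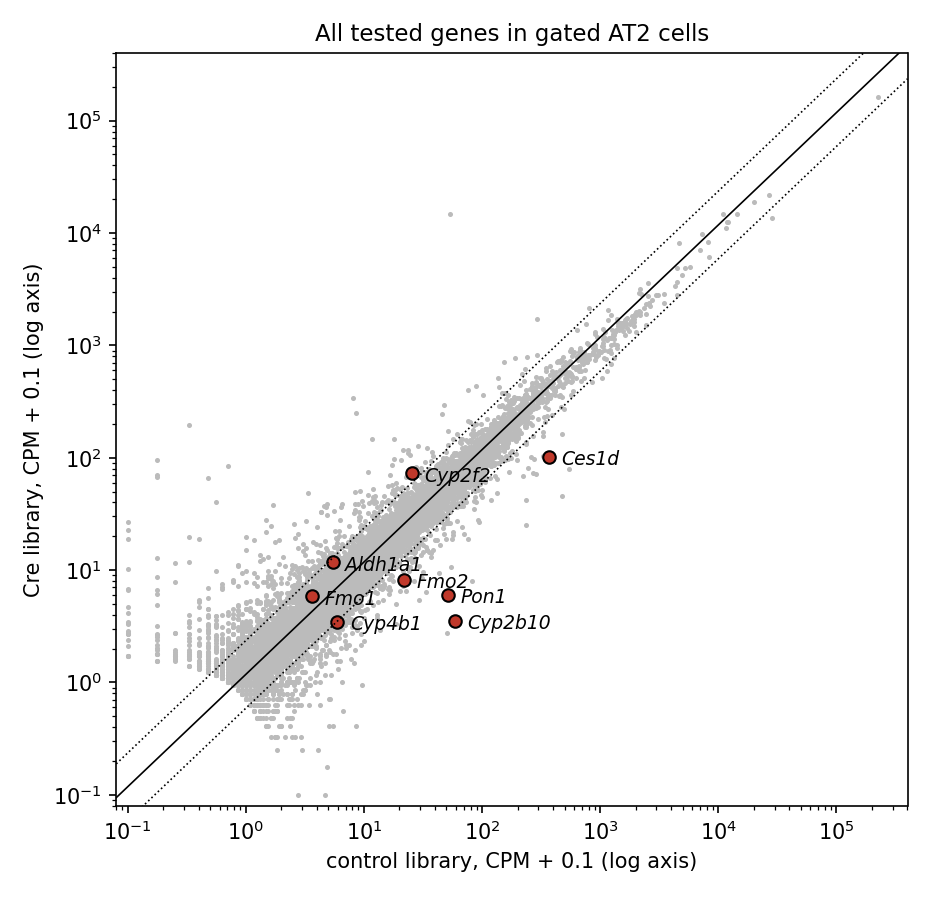
CPM + 0.1 of each of the 12270 genes tested in gated AT2 cells, Cre library on the vertical and control library on the horizontal log axis, with the solid line at the all-gene median ratio and dotted lines at 2-fold from it. Cyp2b10 (3.44 CPM in Cre, 58.7 CPM in control), Pon1 and Ces1d lie below the band and Cyp2f2 (72.4 CPM in Cre, 25.4 CPM in control) above it.

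The shares of AT2 cells with a UMI ran the same way after each cell was thinned to 1000 UMIs, which left out 53 Cre and 84 control cells. Ces1d was found in 9.35% (7.95 to 10.9) of 1561 Cre and 29.2% (26.7 to 31.7) of 1283 control AT2 cells, against 0.584% of Cre and 0.425% of control B cells. Cyp2b10 was found in 0.256% (0.0699 to 0.655) of Cre and 5.53% (4.35 to 6.93) of control AT2 cells, Pon1 in 0.256% (0.0699 to 0.655) of Cre and 4.91% (3.79 to 6.24) of control cells, and Cyp2f2 in 5.77% (4.66 to 7.04) of Cre and 2.34% (1.58 to 3.32) of control cells. In B cells Cyp2b10 was at 0.146% in Cre and 0.0608% in control and Cyp2f2 at 0.804% in Cre and 0.425% in control, while Pon1 was found in 0 of 1369 Cre and 0 of 1646 control B cells, with upper bounds of 0.269% in Cre and 0.224% in control. Unthinned, the AT2 shares were 48.7% and 85.2% for Ces1d, 1.67% and 26.1% for Cyp2b10, 4.15% and 25.2% for Pon1, and 24.3% and 15.4% for Cyp2f2 in the Cre and control libraries. The median depth of B cells was 2024 UMIs in the Cre and 3061 UMIs in the control library.

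**Figure D3:**
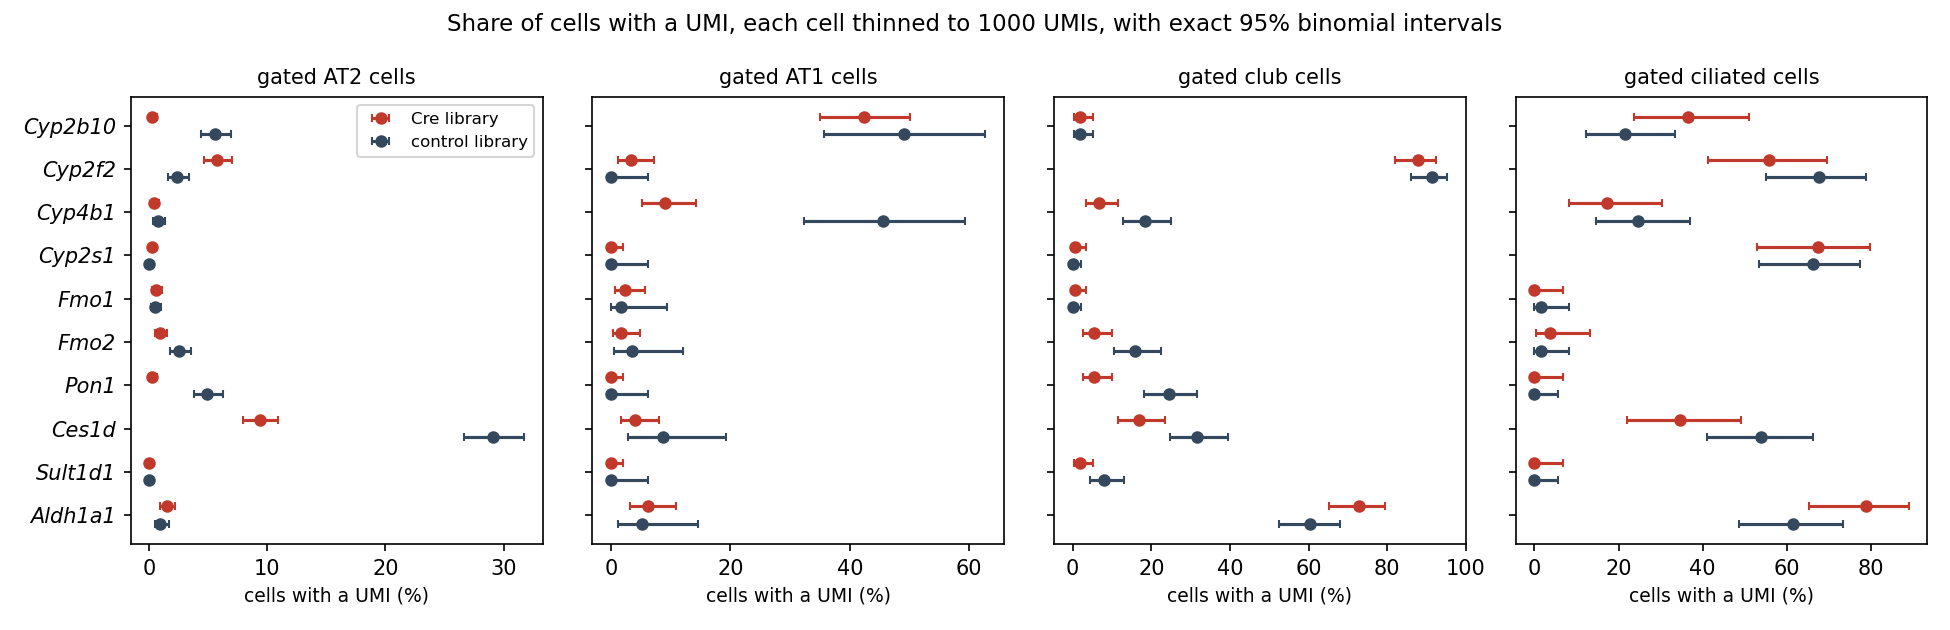
Share of cells with a UMI of each gene after thinning to 1000 UMIs per cell, in 4 gated epithelial classes, Cre library (red) above control library (dark blue), with exact 95% binomial intervals. In AT2 cells Ces1d reached 9.35% in Cre and 29.2% in control, and in AT1 cells Cyp4b1 reached 9.04% in Cre and 45.6% in control.

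Sox9, a transcription factor of embryonic tip progenitors, was detected in 756 of the 1614 Cre AT2 cells (2576 UMIs), against 3 UMIs in all control AT2 cells, and the Cre cells were divided by it. Cyp2b10 stood at 1.04 CPM (0.417 to 2.14) in Cre cells with a Sox9 UMI and at 6.01 CPM (4.25 to 8.24) in the 858 without, against 58.7 CPM in control cells. The 2 Cre levels rest on 7 and 38 UMIs. The 1 Cre cell with 17 Cyp2b10 UMIs must lie in the set without a Sox9 UMI. The Poisson intervals do not cover such uneven spread, so the gap between the 2 Cre sets rests largely on that cell. Pon1 stood at 3.26 CPM in Cre cells with and 8.69 CPM in Cre cells without a Sox9 UMI, against 51.8 CPM in control cells, and Ces1d at 85.8 and 119 CPM in these 2 sets of Cre cells, against 369.9 CPM. Both sets of Cre cells thus lay below the control for all 3. Cyp2f2 was at 73.1 CPM with and 71.6 CPM without a Sox9 UMI, with overlapping intervals. Cells with a Sox9 UMI were deeper, at a median of 8418 UMIs, than those without, at 7457.

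**Figure D4:**
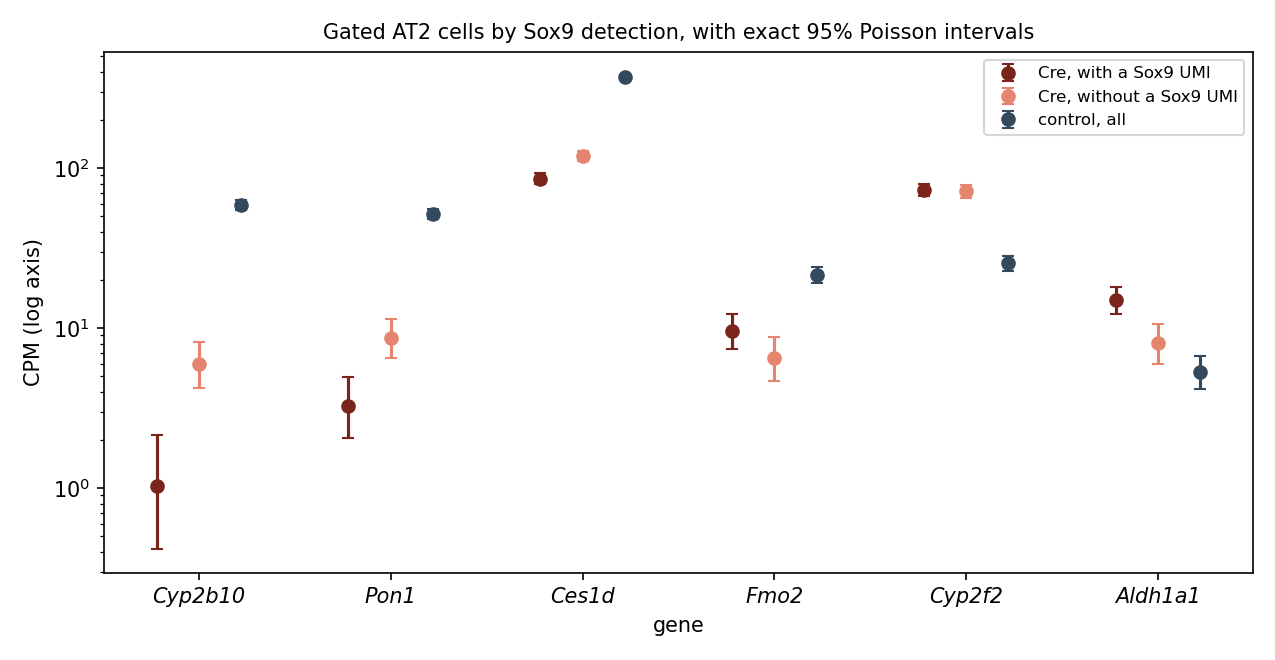
CPM (log axis) of 6 genes in gated AT2 cells, for Cre cells with a Sox9 UMI, Cre cells without one, and all control cells, with exact 95% Poisson intervals. Cyp2b10 runs from 1.04 CPM in Cre cells with a Sox9 UMI to 6.01 CPM in Cre cells without one and 58.7 CPM in control cells, whereas Cyp2f2 is at 73.1 and 71.6 CPM in the Cre sets and 25.4 CPM in control cells. The Cyp2b10 level of Cre cells without a Sox9 UMI includes 1 cell with 17 of 38 UMIs.

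When both libraries were clustered together, 176 Cre AT2 cells fell into the cluster that held most control AT2 cells and 1425 into the cluster that held most Cre AT2 cells. Since clustering used these genes, the values describe the sets only. The 176 cells had Cyp2b10 at 20.7 CPM (12.97 to 31.3), Pon1 at 15.05 CPM and Ces1d at 185 CPM, and the 1425 cells had them at 1.94, 5.14 and 95.1 CPM. Cyp2b10 had 22 UMIs in the 176 and 23 UMIs in the 1425 cells. In 1 of these sets, which was not determined, a single cell held 17 of the UMIs. For these 3 genes the 176 cells lay between the other Cre cells and the 1344 control cells of their cluster, which had 58.5, 52.3 and 371 CPM. Cyp2f2 did not lie between them: it was at 125 CPM (105 to 148) in the 176 Cre cells, 68.4 CPM in the 1425 Cre cells and 25.7 CPM in the control cells. Stk11 was at 35.7 CPM (25.3 to 49.1) in the 176 cells.

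In gated AT1 cells, 331 Cre and 116 control cells at median depths of 1076 and 978.5 UMIs, 6 genes had enough UMIs. Of these, 4 were lower (5.16% of 7280 genes tested) and 1 higher (9.85% of all genes). Cyp4b1 had 113 CPM (93.1 to 135) in Cre AT1 cells and 796 CPM (703 to 898) in control AT1 cells, 7.07-fold lower (5.67 to 8.86), with a relative ratio of 0.130, the 3rd lowest of all genes tested. It was found in 9.04% (5.26 to 14.3) of 177 Cre and 45.6% (32.4 to 59.3) of 57 control AT1 cells at 1000 UMIs, and in 17.2% and 42.2% unthinned. The 6 aerocyte markers, from the class with the highest Cyp4b1, summed to 40.4 CPM in Cre and 45.1 CPM in control AT1 cells. Cyp2s1 had 6 and 0 UMIs and Fmo1 8 and 1 UMIs in Cre and control AT1 cells, too few to compare, and Pon1 and Sult1d1 had 0 UMIs in both, which allows each up to 2.89 CPM in Cre and 9.01 CPM in control.

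Cyp2b10 had 666 CPM (617 to 717) in Cre AT1 cells and 1129 CPM (1018 to 1249) in control AT1 cells. Its ratio of 0.590 (0.519 to 0.670) and relative ratio of 0.541 did not pass the 2-fold rule. Its relative log2 value turned to 0.07 with B cell CPM subtracted. B cells held only 2.03 CPM of Cyp2b10 in Cre and 0.825 CPM in control, so the subtraction hardly changes its plain ratio. The turn lies in the all-gene median of that alternative. AT1 cells held 47.2% of all Cyp2b10 UMIs of the Cre library and 21.2% of those of the control library, while AT2 cells held 43.5% of those of the control library. Ces1d had 63.5 CPM in Cre and 123 CPM in control AT1 cells (relative ratio 0.473) and Aldh1a1 49.1 and 102 CPM in Cre and control AT1 cells (0.441), both called lower, a call kept in 4 of 11 alternatives for Ces1d and in 7 of 11 for Aldh1a1. With B cell CPM subtracted the relative log2 value of Ces1d was -0.18. B cells held 5.22 CPM of Ces1d in Cre and 5.12 CPM in control, so here too the all-gene median accounts for most of the shift. Fmo2, also called lower at 21.2 CPM in Cre and 48.1 CPM in control, lay near the B cell level of 19.4 and 19.5 CPM, and its log2 value turned to 0.20 with classes from clusters. Cyp2f2 was called higher from 61 Cre and 3 control UMIs, a ratio of 6.51 (2.13 to 32.5), but 1 cell held 16 of the 61 UMIs and its log2 value turned to -0.12 with thinned cells and -0.17 with cells high in Scgb1a1 or Sftpc kept.

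AT2 markers in the AT1 gate summed to 8290.5 CPM in Cre and 5709.6 CPM in control cells and AT1 markers were lower in Cre, with Ager at 9260 CPM in Cre and 15906 CPM in control and Hopx at 4395 and 9617 CPM in Cre and control cells. Their part in the AT1 results was not tested.

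**Figure D5:**
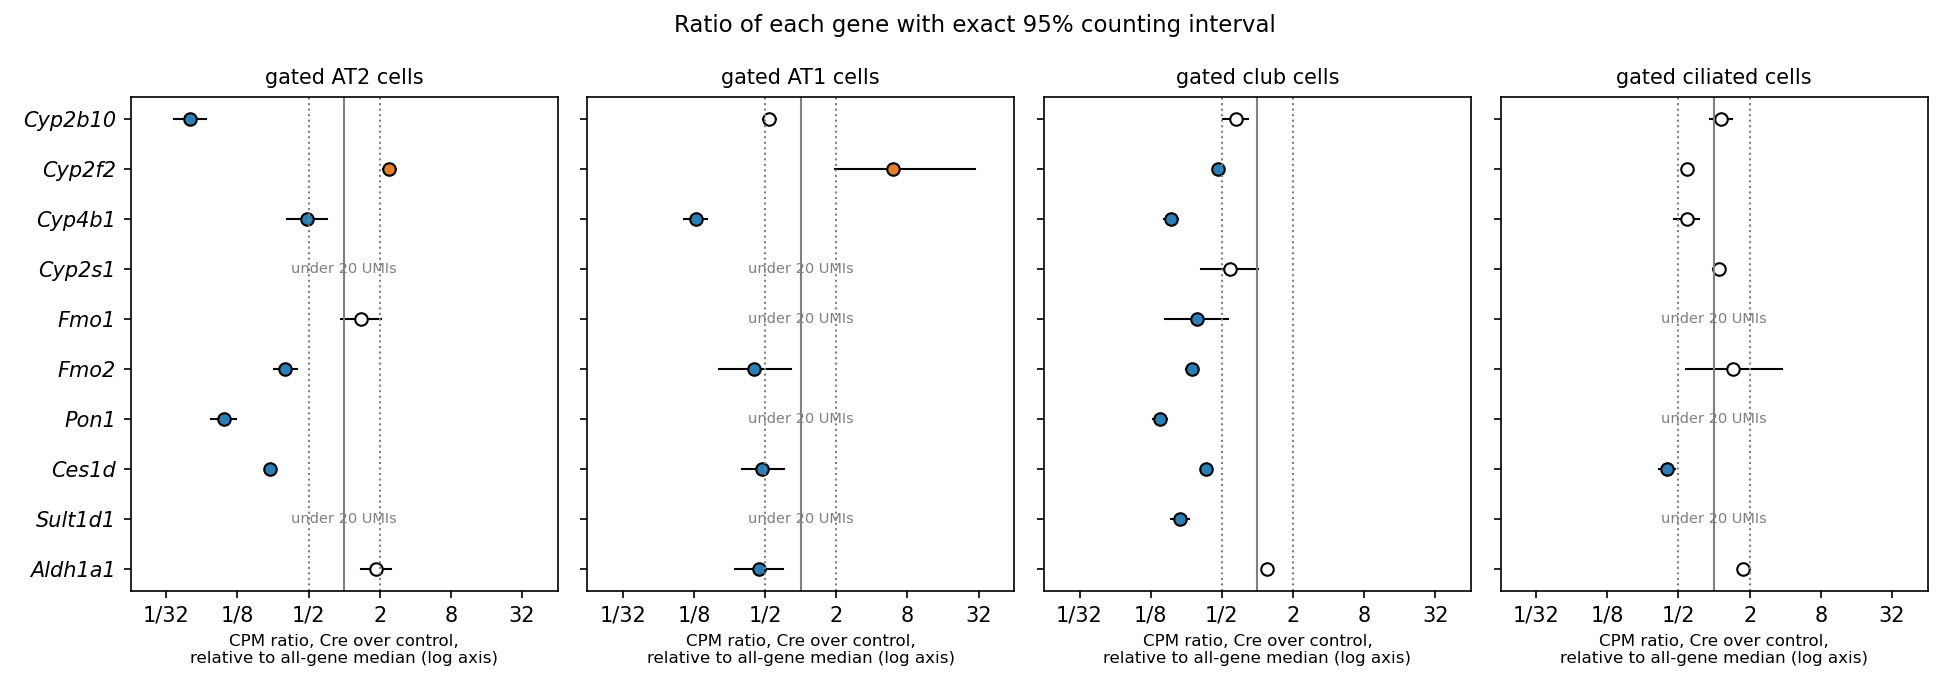
Relative ratio of each gene, Cre over control on a log axis, in 4 gated epithelial classes with exact 95% counting intervals. Blue points were at least 2-fold lower in Cre, orange points at least 2-fold higher, and open points within 2-fold of the all-gene median (solid line). Cyp2b10 in AT2 cells (0.0498) is the lowest point, and 7 of 10 genes are blue in club cells, where 4.92% of all genes were lower.

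In gated club cells, 174 Cre and 166 control cells, all 10 genes were measured. By the 2-fold rule 7 were lower, where 4.92% of 9872 genes were, and 0 were higher, where 5.79% of all genes were. Scgb1a1 took 416737 CPM in Cre and 597027 CPM in control club cells, and the typical gene was 1.54-fold higher by CPM. The relative scale removes that shift. On plain CPM 5 genes passed 2-fold, all lower, namely Cyp4b1, Fmo1, Fmo2, Pon1 and Sult1d1. The median depth was 26659 UMIs in Cre and 39958 UMIs in control club cells.

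Among the P450 genes, Cyp2f2 had 3409 CPM (3355 to 3463) in Cre and 4721 CPM (4666 to 4776) in control club cells, a ratio of 0.722 and a relative ratio of 0.468, past 2-fold in 7 of 11 alternatives. Per 1000 Scgb1a1 UMIs it was at 8.18 (8.05 to 8.31) in Cre and 7.91 (7.82 to 7.9996) in control club cells. Cyp4b1 had 54.9 CPM (48.3 to 62.2) in Cre and 192 CPM (181 to 204) in control club cells, 3.50-fold lower (3.05 to 4.04), with a relative ratio of 0.185. Cyp2b10, at 24.9 CPM in Cre and 24.7 CPM in control, and Cyp2s1, at 5.33 CPM in Cre and 5.92 CPM in control, were within 2-fold.

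The other phase I enzymes of club cells were mostly lower. Pon1 had 52.2 CPM (45.8 to 59.3) in Cre and 226 CPM (214 to 238) in control club cells, 4.33-fold lower (3.76 to 4.99), with a relative ratio of 0.150, the 22nd lowest. Fmo2 had 80.0 CPM in Cre and 186 CPM in control (relative ratio 0.279), and Ces1d 228 CPM in Cre and 399 CPM in control (0.370). Fmo1 was called lower at 3.56 CPM in Cre and 7.40 CPM in control, below the B cell levels of 15.1 and 8.58 CPM. Aldh1a1 differed from these: it had 1885 CPM (1845 to 1925) in Cre and 1018 CPM (993 to 1043) in control club cells, a ratio of 1.85 (1.79 to 1.91), but its relative ratio of 1.20 was near the typical gene.

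Sult1d1, a sulfotransferase of dopamine and phenols, was found almost entirely in club cells, which held 88.9% of its UMIs in the Cre and 92.3% in the control library. It had 33.8 CPM (28.6 to 39.6) in Cre and 98.7 CPM (91.0 to 107) in control club cells, 2.92-fold lower (2.44 to 3.51), with a relative ratio of 0.222. Thinned to 1000 UMIs, Pon1 was found in 5.45% (2.52 to 10.1) of 165 Cre and 24.4% (18.0 to 31.7) of 164 control club cells and Sult1d1 in 1.82% (0.377 to 5.22) and 7.93% (4.29 to 13.2) of them. Unthinned, these shares were 27.6% and 78.9% for Pon1 and 16.1% and 42.8% for Sult1d1.

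Club cells were divided by a UMI of the mucin-cell genes Muc5ac, Muc5b or Clca1, found in 140 of the Cre and 50 of the control cells. Pon1 was lower in the Cre library in both sets: 48.0 CPM in Cre and 262 CPM in control cells with such a UMI, and 80.3 CPM (59.0 to 107) in 34 Cre and 204 CPM in 116 control cells without. Cyp4b1 did likewise, at 47.0 and 203 CPM with and 108 and 185 CPM without in Cre and control cells. Sult1d1 was higher in cells with such a UMI within each library, with 38.6 CPM in Cre cells with and 1.71 CPM (1 UMI) in Cre cells without such a UMI, and 205 CPM in control cells with and 32.5 CPM in control cells without. Cyp2f2 was at 3267 and 4814 CPM with and 4357 and 4663 CPM without in Cre and control cells. Cells without such a UMI were shallower, at 11934 UMIs in Cre and 34028 UMIs in control, than those with one, at 27128 and 48778 UMIs in Cre and control.

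In gated ciliated cells, 56 Cre and 76 control cells, 7 genes had enough UMIs, of which 1 was lower (3.6% of 6743 genes) and 0 higher (4.36% of all genes). Ces1d had 443 CPM (388 to 504) in Cre and 1046 CPM (959 to 1138) in control ciliated cells, a relative ratio of 0.399. Cyp2s1, a dioxin-inducible P450 of epithelia, was within 2-fold at 1256 CPM (1162 to 1356) in Cre and 1067 CPM (980 to 1160) in control. Aldh1a1 had 2084 CPM in Cre and 1109.7 CPM in control, with a relative ratio of 1.77, and Cyp2f2 had 1163 CPM in Cre and 1844 CPM in control (0.594). The Cyp2f2 UMIs of ciliated cells came at 343 per 1000 Scgb1a1 UMIs in Cre and 400.3 in control, against 8.18 in Cre and 7.91 in control club cells. The 5% limit on Scgb1a1 applied to ciliated but not to club cells. Cyp2b10 (399.6 CPM in Cre, 328 CPM in control) and Cyp4b1 (211 CPM in Cre, 338 CPM in control) were within 2-fold, as was Fmo2 at 14 UMIs in Cre and 9 UMIs in control. Fmo1, Pon1 and Sult1d1 had at most 4 UMIs in either library.

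Ces1d was thus called lower in each of the 4 epithelial classes, with the AT1 call kept in 4 of 11 alternatives, at relative ratios of 0.234 in AT2, 0.473 in AT1, 0.370 in club and 0.399 in ciliated cells. Outside the epithelium it was within 2-fold in its main classes: alveolar fibroblasts had 280.5 CPM in Cre and 512 CPM in control (0.527) and mesothelial cells 347 CPM in Cre and 411 CPM in control (0.826). The contrast with alveolar fibroblasts leans on the 2-fold line and the centring. On plain CPM Ces1d did not pass 2-fold in AT1 cells (63.5 CPM in Cre, 123 CPM in control) or club cells (228 and 399 CPM) either. The difference between classes was not tested.

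Cyp4b1 and Fmo1, the genes highest in aerocytes, were within 2-fold there. Cyp4b1 in aerocytes had 1968 CPM (1822 to 2123) in Cre and 2214 CPM (2090 to 2344) in control, a ratio of 0.889 (0.807 to 0.978), where its AT1 ratio was 0.141. In general capillary cells it had 231 CPM in Cre and 404 CPM in control (relative ratio 0.527). Fmo1, the flavin monooxygenase of mouse kidney and liver, had 1173 CPM (1061 to 1293) in Cre and 1211 CPM (1120 to 1308) in control aerocytes, and 499.7 and 529 CPM in Cre and control general capillary cells. In aerocytes 0 of 4 genes tested were called, where 7.62% of all genes were called in either direction, and in venous cells 0 of 3, where 8.77% were. In general capillary cells 1 of 6 genes was called lower, where 2.57% of all genes were: Cyp2f2, from 4 UMIs in Cre (3.96 CPM) and 18 UMIs in control (13.02 CPM). B cells held 6.96 CPM of Cyp2f2 in Cre and 5.45 CPM in control. In lymphatic cells 1 of 2 genes was called lower, where 3.96% of all genes were: Fmo1, from 8 UMIs in Cre (21.4 CPM) and 15 UMIs in control (44.7 CPM), with a ratio interval of 0.176 to 1.20 that includes 1.

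Fmo2 was within 2-fold in mesothelial cells and in both kinds of fibroblast. It had 2899 CPM in Cre and 3688 CPM in control mesothelial cells (relative ratio 0.771), 1016 and 1769.9 CPM in Cre and control alveolar fibroblasts (0.552) and 519 and 795 CPM in Cre and control adventitial fibroblasts (0.595). Aldh1a1 had 453 CPM (430.2 to 477) in Cre and 903 CPM (856 to 952) in control alveolar fibroblasts and passed the rule with a relative ratio of 0.482, while mesothelial cells had 387 CPM in Cre and 446 CPM in control. In alveolar fibroblasts 2 of 6 genes were called lower, against 3.94% of all genes tested, the other being Cyp4b1 at 3.74 CPM in Cre and 10.4 CPM in control, near the B cell level. Cyp2s1 in mesothelial cells was level at 151 CPM in Cre and 149.5 CPM in control.

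Among immune classes, Aldh1a1 was called higher in neutrophils, at 28.3 CPM in Cre and 9.45 CPM in control (ratio 2.996, 1.98 to 4.53), where 4.79% of all genes were higher. It was also called higher in nonclassical monocytes, at 22.4 CPM in Cre and 9.72 CPM in control (2.74% of all genes), and in classical monocytes, at 13.3 CPM in Cre and 4.83 CPM in control (3.38%). It was called lower in NK cells, at 5.73 CPM in Cre and 15.8 CPM in control (2.26% of all genes lower), and in group 2 innate lymphoid cells, at 10.9 CPM in Cre and 24.8 CPM in control (3.78%). The Cre and control UMIs were 25 and 20 in nonclassical and 13 and 9 in classical monocytes. They were 8 and 21 in NK cells and 18 and 16 in group 2 innate lymphoid cells. In the monocyte, NK and group 2 innate lymphoid classes the Poisson intervals of both libraries overlapped. In B cells, the level read as free RNA, Aldh1a1 had 18.6 CPM in Cre and 13.2 CPM in control. The other immune calls were lower: Fmo2 in group 2 innate lymphoid cells (16.3 CPM in Cre, 38.8 CPM in control), Cyp2f2 (5.70 CPM in Cre, 12.1 CPM in control) and Fmo2 (8.68 CPM in Cre, 14.7 CPM in control) in T cells, where 2.1% of all genes were lower, and Fmo1 in interstitial macrophages (2.60 CPM in Cre, 7.40 CPM in control), where 6.68% were. For Fmo2 the B cell level was 19.4 CPM in Cre and 19.5 CPM in control. For Cyp2f2 it was 6.96 CPM in Cre and 5.45 CPM in control. For Fmo1 it was 15.1 CPM in Cre and 8.58 CPM in control, above both levels in interstitial macrophages, which came from 9 and 11 UMIs.

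Other genes of the pathway, from lists of 22 P450s and electron donors, 29 phase I enzymes, 27 conjugating enzymes, 15 receptors and regulators and 7 efflux transporters, were counted by the same rule. In AT2 cells 1 of 16 P450 and donor genes tested was lower (Cyp2d22) and 3 were higher (Cyp1b1, Cyp2r1 and Cyp2u1, each under 2.5 CPM in both libraries), where 3.94% of all genes were lower and 5.79% higher, with a median relative log2 ratio of -0.03, where all genes have 0 by construction. Of 21 other phase I genes, 5 were lower and 1 higher (median -0.30), against the same shares of all genes. The lower ones included Pon3, another paraoxonase, at 68.8 CPM in Cre and 128 CPM in control, and Aldh3a1, at 0.535 and 3.35 CPM in Cre and control. Of 18 conjugating enzymes 3 were lower, where 3.94% of all genes were, and 0 higher (median -0.35), namely the glutathione transferases Gsta3 (4.90 CPM in Cre, 18.6 CPM in control) and Gstm2, and the sulfotransferase Sult1a1 (19.0 CPM in Cre, 49.5 CPM in control). Of 11 regulators and 5 transporters, 0 passed in either direction.

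In club cells 4 of 13 P450 and donor genes (median -0.56), 7 of 23 phase I genes (-0.45) and 6 of 17 conjugating enzymes (-0.83) were lower and 0 higher in each, where 4.92% of all genes were lower and 5.79% higher. Gstm1 had 172 CPM in Cre and 327 CPM in control, Gstm2 90.0 and 178 CPM in Cre and control, and Gsta3 204 CPM in Cre and 330.0 CPM in control. Cyb5a, an electron donor to P450 enzymes, had 432 CPM in Cre and 643 CPM in control, and Aox3, an aldehyde oxidase, 70.9 and 139 CPM in Cre and control. Of 10 regulators 1 was lower, the transcription factor Cebpa at 28.0 CPM in Cre and 40.8 CPM in control. Of 4 transporters, Abcc5 was higher and Abcc3 lower. In AT1 cells 1 of 8 P450 and donor genes (Cyp51), 2 of 11 phase I genes (Aldh1a7 and Cbr2), 0 of 14 conjugating enzymes, 1 of 9 regulators (Cebpa) and 0 of 1 transporters were higher, where 9.85% of all genes were. The Cebpa call came from 26 UMIs in Cre and 3 UMIs in control, with a ratio interval of 0.851 to 14.3 that includes 1. That of Aldh1a7 came from 28 UMIs in Cre and 1 UMI in control, with a ratio interval of 1.48 to 367. Across the 5 lists Gsta3 alone was lower there, where 5.16% of all genes were. The carbonyl reductase Cbr2 was higher there, at 437 CPM in Cre and 42.0 CPM in control, and Gsta3 lower, at 16.4 CPM in Cre and 96.1 CPM in control. In ciliated cells 2 of 15 phase I genes (Aldh1a7 and Aox1) were higher, where 4.36% of all genes were, and 1 of 11 conjugating enzymes (Inmt) was lower, where 3.6% of all genes were, and 0 of 6 P450 and donor genes, 10 regulators and 1 transporter passed.

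The likeness of each gene to the others was described by the correlation of log2(CPM + 5) over 42 points, 21 classes in 2 libraries, among 8775 genes that reached 50 CPM in at least 1 point. The points of a library share their free RNA and depth. Cyp2b10 was most like 2310007B03Rik (r = 0.975), Tmprss2 and Sec14l3, the last of which is among the club markers, Cyp2f2 most like Adam28 (0.931), Cxcl17 and Gpx2, and Cyp4b1 most like Clic5 (0.885). Cyp2s1 was most like Cfap57 (0.958), Fmo1 most like Tmem100 (0.947) and Fmo2 most like Ptprd (0.904). Pon1 was most like Scgb1c1 (0.920), Sult1d1 most like Scgb1a1 (0.957), Ces1d most like Gsta4 (0.905) and Aldh1a1 most like Fam13a (0.846). Among the 10 genes themselves, the closest pairs were Cyp2f2 with Sult1d1 (0.85), Pon1 with Sult1d1 (0.83) and Ces1d with Aldh1a1 (0.83), and the neighbours Fmo1 and Fmo2 had 0.42.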

How the data were processed

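Single cells of whole lung were measured in 1 library per genotype. The deposited matrices hold whole-number UMI counts, with no normalization by the authors, and no barcode lies under 500 UMIs. Cell Ranger 3.1.0, STAR and build mm10 are named per the submitters' processing notes, and the matrix header gives software version 3.0.0. Filters before deposit are named neither in the labels nor in the headers. Of the gene identifiers, 30934 matched GENCODE M21. The barcodes numbered 16821 in the Cre and 13587 in the control library, with 81598779 and 74219499 UMIs.

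Cells with 200 or more genes, at most 20% mitochondrial UMIs and no doublet call were kept. Scrublet in scanpy 1.11.5 (expected rate 0.06) called 2.44% of Cre and 3.14% of control barcodes, and free RNA was not subtracted. A marker was on with at least 1 UMI and at least 2 times the count expected from its mean share of UMIs over both libraries. A cell needed 3 markers on, 2 of them specific to its class, and joined the class with the highest fraction on; ties, cells whose runner-up from another family reached 0.5 of the best, and cells with over 5% of UMIs from Scgb1a1 outside club or Sftpc outside AT2 cells were left out. Used classes held 77.5% of kept Cre and 85.0% of kept control cells. The scoring rule and the 5% limit were set after the data were seen, and the genes, lists, markers and the sets of cells with Sox9 or mucin UMIs were chosen with earlier results of these data known.

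Ratios are of CPM of summed counts, with exact 95% intervals (scipy 1.17.1), and genes with at least 20 UMIs over both libraries were compared. Genes named are the 10, the 3 most like each, and members of 5 lists; Sox9, Stk11 and the marker genes are also given. The alternatives were a stricter gate, Leiden classes (leidenalg 0.10.2), doublets kept, a 10% mitochondrial limit, no centring, thinning, B cell CPM subtracted, equal cell weights, no UMI minimum, a 1.5-fold rule and, added after seeing the data, the 5% limit lifted and CPM without secretoglobin and surfactant UMIs. The scripts were tested on simulated data.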

Additional observations from a re-analysis of the deposited data

Results flagged for a closer look

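Cyp2f2 ran in opposite directions in different gated classes. Its relative ratio, Cre over control, was 2.42 in AT2 cells (72.4 CPM in Cre, 25.4 CPM in control) and 5.98 in AT1 cells (61 UMIs in Cre, 3 UMIs in control), but 0.468 in club cells (3409 CPM in Cre, 4721 CPM in control). The AT1 value turned round in 2 alternatives, and its control side rests on 3 UMIs. The club value was past 2-fold in 7 of 11 alternatives, and its log2 value was -0.47 with no centring. Per 1000 Scgb1a1 UMIs, Cyp2f2 was at 8.18 in Cre and 7.91 in control club cells. The difference between classes was not tested, since each genotype had 1 library.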

How the results depend on the processing

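Over 12 alternatives, the count of genes past 2-fold in AT2 cells, 6 as reported, ran from 5 to 7, the highest with a 1.5-fold rule, and that in club cells, 7 as reported, was 4 with each cell thinned to 1000 UMIs and 5 to 9 otherwise, the highest again with that rule. In AT2 cells the calls of Cyp2b10, Pon1, Ces1d, Fmo2 and Cyp2f2 held in all 11 alternatives that recompute a ratio, and in club cells those of Cyp4b1, Pon1, Fmo2 and Sult1d1. For Fmo2 in AT2 cells the alternative with B cell CPM subtracted cannot check the call. Its Cre level of 8.11 CPM lay below the B cell level of 19.4 CPM, which leaves no Cre signal to compare. Of 341 recomputed ratios 268 moved by less than their counting interval, 70 moved further, and in 3 a called ratio turned round. The log2 relative ratio of Cyp2f2 in AT1 cells turned to -0.12 with thinned cells and to -0.17 with cells high in Scgb1a1 or Sftpc kept, and that of Fmo2 in AT1 cells to 0.20 with Leiden classes. The cause was not tested. No paired analysis was possible because each genotype had 1 library. Precision is limited by counting error alone in these intervals, PCR and mouse-to-mouse variation being outside them, and by few cells in the AT1 and ciliated gates.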
